A study of Mus musculus with 92 samples.

Results

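Oncofetal liver genes are as a rule made in quantity by the fetal liver, are lowered or silenced around birth, and return in many liver tumours and during regeneration. The set described here holds 7 genes listed under that name, taken as a fixed list by symbol: H19, Afp, Igf2, Gpc3, Igf2bp2, Igf2bp3 and Dlk1. No fetal liver was measured here, so whether each member was silenced after birth, or returned, was not tested. All 7 are among the 17275 genes whose lines in the deposited count table could be read, and 6 of the 7 passed the filter on low counts that left 12617 genes for testing. Dlk1 was the member that did not pass. It is not listed in the comparison tables used here, so its identifier was matched through the GENCODE annotation. They were chosen by name, and the list was drawn up with group levels and fold changes of these same female livers in view. The values and tests from the female counts are therefore a description of the members and not independent evidence.

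The members are listed together as genes of fetal liver but do different work. H19 is a long non-coding RNA expressed from the maternal chromosome, and its neighbour Igf2, expressed from the paternal one, encodes a growth factor of fetal life. Igf2bp2 and Igf2bp3 encode RNA-binding proteins first found on the Igf2 messenger RNA. Afp encodes alpha-fetoprotein, the main serum protein of the fetus and the albumin of that stage, and Gpc3 encodes a cell-surface heparan sulfate proteoglycan used as a marker of hepatocellular carcinoma. Dlk1 encodes a membrane protein of hepatoblasts, from another imprinted locus. In mice the repressors Zhx2, Zbtb20 and Zfhx3 are known to hold down Afp after birth, and Zhx2 also acts on H19 and Gpc3.

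The RNA came from livers of HET3 mice, a genetically heterogeneous cross with no engineered allele named in the labels, taken after a 16-hour fast. The 6 groups compared are females on the Low Isoleucine diet (8 libraries at 24 months, 7 used at 6 months), the Low Amino Acid diet (7 and 8 libraries) and the Control diet (8 and 8). Low Amino Acid lowers all amino acids together, and Low Isoleucine lowers 1 essential branched-chain amino acid. By the labels, animals killed at 24 months began their diet at 6 months of age and those killed at 6 months began at 9 weeks, whereas the series description gives 13 weeks on diet for both. Age, starting age and time on diet therefore cannot be told apart. Livers are bulk tissue, so fewer cells of a type and less RNA per cell cannot be told apart either.

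Library totals over the readable genes ran from 7.82 to 27.557 in units of 1e+06 counts, with a median of 22.578. The shallowest was a 24-month liver on Low Isoleucine, replicate 5. The second shallowest held 14.287 in the same units. These totals cover only the readable lines, so they are part of each library's depth. Hepatocyte markers were present in every library: their summed level over 7 readable markers of 10 listed, in counts per 1e+06 counts of the library (CPM), lay between 65360 and 149700. Neutrophil markers set 5 libraries apart, with a summed level of 227 to 927 CPM over 12 markers against at most 97.2 CPM in the others. All 5 were from old livers: Low Isoleucine replicate 5, Low Amino Acid replicates 2 and 4, and Control replicates 1 and 4. Another library, 6-month Low Isoleucine replicate 3, was left out by the rule for the list. It carried 50.8 CPM of the Y-linked gene Kdm5d, against at most 0.639 CPM in the 46 libraries used, and so went against its label. Of the 46 libraries, 19 have titles that share 1 of 8 animal numbers within their group and differ in the letter after it. The labels do not say whether a shared number is a cage or a litter, and p-values measure the spread between these libraries, taken as independent.

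Per length, H19 had the highest mean over all libraries. Over the 46 libraries that mean was 3.41 CPM per kilobase of exon, against 1.54 for Afp, 0.613 for Gpc3, 0.385 for Igf2bp2, 0.190 for Igf2bp3, 0.145 for Igf2 and 0.00503 for Dlk1. The rank of H19 came from part of the groups: in 6-month livers Afp was above it on Low Isoleucine, at 1.11 against 0.255 CPM per kilobase, and on Control, at 1.43 against 0.908. These are low levels for liver. Over the same libraries the mean count per library was 183 for H19, 114 for Afp, 63.7 for Igf2bp2, 36.6 for Gpc3, 34.2 for Igf2bp3 and 18.2 for Igf2, so counting error is large for the last 3.

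Across 9 comparisons of groups, H19, Igf2bp2 and Afp each passed the threshold in at least 1, and Igf2, Gpc3 and Igf2bp3 in none (edgeR's quasi-likelihood test, adjusted p under 0.05 with Benjamini-Hochberg adjustment over all 12617 genes). For 24 over 6 months on Control, 2 of the 6 tested members rose, H19 and Igf2bp2, where 16.7% of all genes rose. With age on Low Amino Acid 1.61% of genes were called and 1.13% rose, among them 2 members, Igf2bp2 and Afp. With age on Low Isoleucine 7.34% were called and 4.9% rose, among them 1 member, H19. Between diets, Igf2bp2 was the member that passed for Low Amino Acid over Control at 24 months, where 0.745% of genes were called and 0.452% rose. It was also the member that fell for Low Isoleucine over Low Amino Acid at 24 months, where 1.25% of genes were called and 0.983% fell.

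The remaining diet comparisons gave no call among the members by edgeR. For Low Amino Acid over Control at 6 months edgeR called 0% of all genes, with 1023 at an unadjusted p under 0.05, where DESeq2 called 8 and limma voom with sample quality weights 52. By an unadjusted p under 0.05 the count there was 1 member, Igf2bp2, which both of those tools called. For Low Isoleucine over Control at 24 months 6.48% of genes were called and 1 member, H19, had an unadjusted p under 0.05, and the same pair of tools called it. For Low Isoleucine over Low Amino Acid at 6 months, where 0.0159% of genes were called, 2 members had an unadjusted p under 0.05, and DESeq2 called 0 and voom 1. For Low Isoleucine over Control at 6 months 0.0238% of genes were called, and no tool of the 3 called a member, with 0 at an unadjusted p under 0.05. The 2 restricted diets share their Control libraries, so their fold changes against Control are not independent. The difference of a diet's effect between the ages was called by edgeR for 0 members on either diet, with 1 member, Afp on Low Amino Acid, at an unadjusted p under 0.05 and 0 by DESeq2 or voom. In both of these contrasts edgeR called 0% of all genes, with 1298 at an unadjusted p under 0.05 for Low Amino Acid and 1072 for Low Isoleucine. DESeq2 called 0 and 10 there, and voom 0 and 0.

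The median log2 fold change over the 6 tested members was 0.51 for age in livers on Low Isoleucine, 0.60 in those on Low Amino Acid and 0.33 in those on Control, beside 0.01, 0.01 and 0.03 over all genes tested. For diet it was 0.11 and 0.39 for Low Amino Acid over Control at 24 and 6 months, beside -0.03 and 0.00 over all genes. For Low Isoleucine over Control it was -0.05 and -0.07, beside -0.02 and -0.01.

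H19 (chromosome 7, 142575529 to 142578143 on the minus strand of GRCm38) was higher in old than in young livers on the Control diet, and its highest library was 8.78 to 97.5 times its lowest within a group, the widest range of the 6 tested members in each of the 6 groups. The gene also hosts a microRNA in its first exon, and microRNA levels are not analysed here. The mature forms from RefSeq (GRCm38.p6) are shown with their seeds, bases 2 to 8, in capitals, beside those of the microRNA inside Igf2. The 4 seeds differ from each other.
mmu-miR-675-5p, chr7:142577112-142577133, minus strand: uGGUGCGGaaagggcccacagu
mmu-miR-675-3p, chr7:142577078-142577099, minus strand: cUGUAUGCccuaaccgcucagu
mmu-miR-483-5p, chr7:142654968-142654989, minus strand: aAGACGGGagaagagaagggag
mmu-miR-483-3p, chr7:142654932-142654952, minus strand: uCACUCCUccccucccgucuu

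In 24-month Control livers H19 had a lowest value of 1.09, a median of 20.1 and a highest value of 106 CPM (n = 8). In 6-month Control livers the same values were 0.678, 1.36 and 5.95 CPM (n = 8). The ranges overlapped, but 6 of the 8 old livers stood above every young one, and the 2 old livers inside the young range were replicates 5 and 6, at 1.56 and 1.09 CPM. The fitted log2 fold change was 3.49 (SE 0.829, adjusted p = 0.00196, edgeR). Without replicate 4, the library at 106 CPM, it was 2.73 (adjusted p = 0.01).

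On Low Amino Acid, H19 ran from 0.549 over a median of 10.2 to 22.8 CPM at 24 months (n = 7) and from 0.297 over 1.35 to 12.8 CPM at 6 months (n = 8). The old and young livers overlapped widely, with 3 of the 7 old ones above every young one. The log2 fold change was 1.68 (SE 0.788) and did not pass (adjusted p = 0.329). On Low Isoleucine, H19 ran from 0.490 over 2.83 to 27.9 CPM at 24 months (n = 8) and from 0.0528 over 0.350 to 1.88 CPM at 6 months (n = 7). There, 5 of 8 old livers lay above every young one. The log2 fold change of 2.89 (SE 0.941) passed narrowly, with an adjusted p of 0.0498, and the H19 call was lost in 32 of the 46 fits that leave out 1 library. Without replicate 5 of the old group, at 27.9 CPM, it was 1.86 (adjusted p = 0.245). That library was also the shallowest and had 227 CPM of neutrophil markers.

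By diet, mean H19 in old livers was 5.70 ± 9.14 CPM on Low Isoleucine, 11.5 ± 8.53 CPM on Low Amino Acid and 26.2 ± 34.1 CPM on Control (SD, n = 8, 7 and 8), an ascending order. In young livers it was 0.628 ± 0.651 CPM on Low Isoleucine (n = 7), 3.53 ± 4.49 CPM on Low Amino Acid (n = 8) and 2.23 ± 2.0 CPM on Control (n = 8), with Low Amino Acid highest. Groups next to each other in the order of means lay within 1 SD of each other. For Low Isoleucine over Control at 24 months H19 had a log2 fold change of -2.36 (SE 0.788) and missed the threshold (adjusted p = 0.0601). This value depended on single libraries: it was -3.39 (adjusted p = 0.00837) without replicate 5 of the Low Isoleucine group and -1.59 (adjusted p = 0.212) without replicate 4 of the Control group. It also passed without replicate 5 or replicate 6 of the Control group, at -2.55 each (adjusted p = 0.0345 and 0.0367). At 6 months the same contrast gave -1.76 (SE 0.939, adjusted p = 0.543). The difference of the Low Isoleucine effect between the ages was -0.60 (95% interval -3.01 to 1.80, adjusted p = 0.938), and that of the Low Amino Acid effect was -1.81 (-3.99 to 0.36, adjusted p = 0.559).

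**Figure D1:**
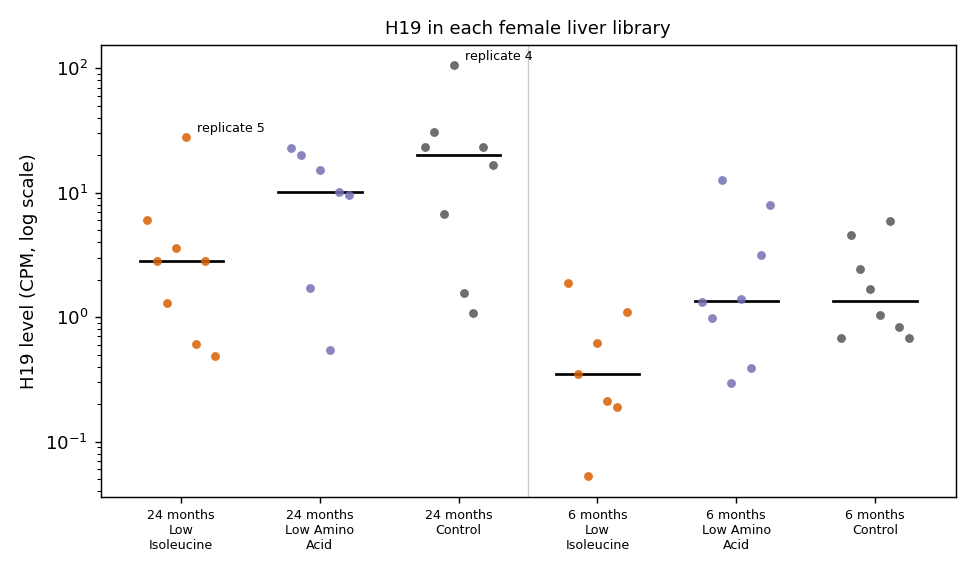
H19 level in CPM on a log axis in each of the 46 female liver libraries, with a bar at each group's median. Among 24-month Control livers 6 of 8 stand above all 6-month Control livers, and the 2 labelled points, at 106 and 27.9 CPM, are the highest of their groups.

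Markers of white blood cells moved with age beside H19. In 24-month Control livers the summed neutrophil markers ran from 9.04 over a median of 62.2 to 927 CPM, against 3.68 over 7.91 to 10.4 CPM in 6-month Control livers, and 12 of 12 markers rose (edgeR, where 16.7% of all genes rose). Of the macrophage markers 10 of 13 rose in that comparison, with a summed level of 286 to 3149 CPM in old and 336 to 839 CPM in young Control livers. Of the lymphocyte markers 9 of 13 tested rose, with 8.96 to 226 CPM in old and 5.41 to 13.3 CPM in young ones. H19 was 106 CPM in the liver with the highest neutrophil sum, and it was 30.7 CPM in replicate 2 of the old Control group, where that sum was 14.2 CPM. The same liver had 48.5 CPM of lymphocyte markers, above all young Control livers. Without the 5 libraries high in neutrophil markers H19 had an age difference of 2.59 on the log2 scale on Control (SE 0.762, adjusted p = 0.0128) and 1.86 on Low Isoleucine (adjusted p = 0.203). That fit kept replicate 7 of the old Control group, which had the highest macrophage and lymphocyte sums, 3149 and 226 CPM, and an H19 level of 23.5 CPM.

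For the diet contrast in which H19 had -2.36, Low Isoleucine over Control at 24 months, neutrophil markers ran from 3.92 to 227 CPM on Low Isoleucine, against 9.04 to 927 CPM on Control. Of these markers 3 of 12 fell, where 3.79% of all genes fell, and their median log2 fold change was -2.94, beside -0.02 over all genes. The median was -0.72 for macrophage and -0.04 for lymphocyte markers. Without the 5 libraries high in neutrophil markers H19 had -2.50 in this contrast (adjusted p = 0.0614). The part of white blood cells in the H19 levels was otherwise not tested.

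**Figure D2:**
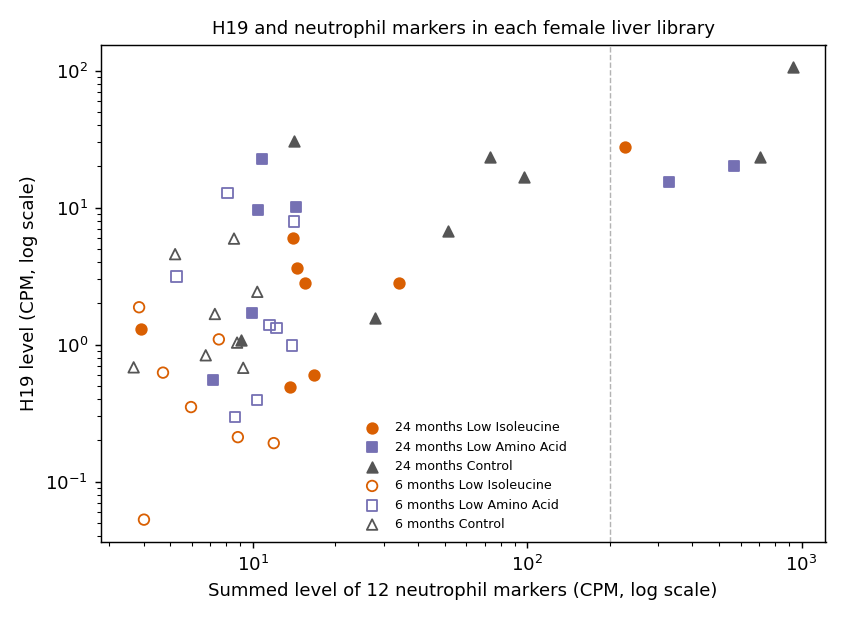
H19 level against the summed level of 12 neutrophil markers, both in CPM on log axes, with 1 point for each of the 46 female libraries and a dashed line at 200 CPM. The 5 libraries to the right of the line had 15.3 to 106 CPM of H19, and 24-month livers to its left spanned 0.490 to 30.7 CPM.

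Igf2 (chromosome 7, 142650766 to 142666816, minus strand), the growth factor gene beside H19, had few counts and passed in no comparison. It had 0.412 to 2.44 CPM in old Control livers (median 0.578) and 0.494 to 0.966 CPM in young ones (median 0.705). The highest, 2.44 CPM, was replicate 4 of the old Control group, which also had the highest H19. The next, 1.73 and 1.69 CPM, were 24-month livers on Low Isoleucine, replicates 4 and 7. With age, Igf2 had a log2 fold change of 0.71 on Low Isoleucine (SE 0.327, adjusted p = 0.168), 0.10 on Low Amino Acid (SE 0.320, adjusted p = 0.928) and 0.34 on Control (SE 0.313, adjusted p = 0.45). Over the 46 libraries, with each group's mean removed, the Spearman rho of Igf2 with H19 was 0.36, the highest of the 15 pairs among the 6 tested members. The antisense transcript Igf2os overlaps the gene, and the kit keeps strand but the strand setting of the counting is not stated, so reads of the 2 cannot be told apart here. Gm49394, annotated as protein-coding on the same strand (142650769 to 142669942), overlaps Igf2 as well, and strand does not separate its reads from those of Igf2.

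Dlk1 (chromosome 12, 109452823 to 109463336) was at 0 counts in 35 of the 46 libraries and reached 29 counts in all of them together. The highest value was 8 counts, or 0.361 CPM, in 24-month Control replicate 7. A count of 0 allows a level of up to 0.109 to 0.384 CPM, from 3 counts in each of those libraries and counting error alone. Dlk1 did not pass the filter on low counts and was not tested.

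Igf2bp2 (chromosome 16, 22059009 to 22163299, minus strand) was higher on Low Amino Acid than on the other diets at 24 months, and it was higher in old than in young livers on Control and on Low Amino Acid. Its protein binds messenger RNAs and controls their stability and translation. Because the promoter of a gene that moved with diet is of interest, the window of 250 bases before to 50 after its start is shown as the RefSeq table gives it (GRCm38.p6), with matches to the GC box GGGCGG on either strand in capitals.
Igf2bp2, chr16:22163250-22163549, minus strand: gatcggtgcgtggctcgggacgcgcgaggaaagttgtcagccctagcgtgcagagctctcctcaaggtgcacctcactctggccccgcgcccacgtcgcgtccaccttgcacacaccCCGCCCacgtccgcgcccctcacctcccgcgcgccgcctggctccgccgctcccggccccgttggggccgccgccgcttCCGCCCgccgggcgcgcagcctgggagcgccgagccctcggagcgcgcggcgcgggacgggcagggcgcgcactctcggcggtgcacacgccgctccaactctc

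The window is 76.7% G or C, against a median of 52.7% over 32851 promoter windows. It holds 2 GC boxes, which 35.7% of windows also have at least once. The letters TATAAA (13.6% of windows) and TGATGNAA, the core of an amino acid response element (4.0% of windows), are not in it on either strand.

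At 24 months Igf2bp2 had a lowest value of 3.96, a median of 4.75 and a highest value of 8.55 CPM on Low Amino Acid (n = 7), against 1.59, 2.90 and 3.92 CPM on Control (n = 8). The groups did not overlap, by the narrow margin between 3.96 and 3.92 CPM, a separation seen upward in 0.0793% of all genes. The log2 fold change was 0.92 (SE 0.193, adjusted p = 0.0166). At 6 months it had 2.29, 3.18 and 4.07 CPM on Low Amino Acid (n = 8) against 1.15, 1.43 and 2.25 CPM on Control (n = 8). Those groups did not overlap either, as 0.0634% of genes did upward. The log2 fold change was of the same size, 0.94 (SE 0.194), with an unadjusted p of 1.53e-05 that ranked 2 among all genes, and missed the threshold (adjusted p = 0.056). The difference between the 2 ages in this effect was -0.02 (95% interval -0.53 to 0.49, adjusted p = 0.986).

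On Low Isoleucine Igf2bp2 gave no call against Control. At 24 months it ran from 1.39 over a median of 2.54 to 4.02 CPM (n = 8), a range around that of Control, with a log2 fold change over Control of -0.15 (95% interval -0.52 to 0.22, adjusted p = 0.695). At 6 months it ran from 1.25 over 1.92 to 2.43 CPM (n = 7), with a fold change of 0.19 (-0.21 to 0.59, adjusted p = 0.839). Set directly against Low Amino Acid, Low Isoleucine was lower by -1.07 at 24 months (SE 0.195, adjusted p = 0.002), a difference called under every alternative setting and with each library left out in turn. At 6 months the difference was -0.75 (SE 0.200) and did not pass (adjusted p = 0.172).

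With age, Igf2bp2 rose by 0.78 on Control (SE 0.193, adjusted p = 0.00269) and by 0.76 on Low Amino Acid (SE 0.193, adjusted p = 0.0263). On Control 5 of 8 old livers stood above every young one, and on Low Amino Acid 6 of 7 did. The rise on Low Amino Acid leaned on replicate 4 of the old group, at 8.55 CPM, without which it was 0.60 (adjusted p = 0.156). It also missed the threshold without replicate 2 of the old group (adjusted p = 0.0538) or replicate 4, 7 or 8 of the young one (adjusted p = 0.0541, 0.0675 and 0.0652). On Low Isoleucine the age difference was 0.45 (SE 0.201, adjusted p = 0.155). In order of mean level, old Low Amino Acid livers (5.27 ± 1.56 CPM, SD, n = 7) stood more than 1 SD above the next group, young Low Amino Acid livers (3.13 ± 0.602, n = 8). Old Low Isoleucine (2.75 ± 0.986, n = 8) and old Control livers (2.75 ± 0.802, n = 8) followed, with Control higher by 0.005 CPM. Young Low Isoleucine (1.80 ± 0.404, n = 7) and young Control livers (1.57 ± 0.433, n = 8) were lowest, and from young Low Amino Acid downward each group was within 1 SD of its neighbour.

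White blood cell markers stood beside part of this as well. On Low Amino Acid at 24 months, replicates 4 and 2, the 2 highest for Igf2bp2 at 8.55 and 5.71 CPM, were the 2 with 329 and 566 CPM of neutrophil markers. Without the 5 libraries high in those markers the diet difference at 24 months was 0.71 (SE 0.216, adjusted p = 0.0538), and the age difference on Low Amino Acid was 0.55 (adjusted p = 0.326). The diet difference at 6 months, where all neutrophil sums were at most 14.2 CPM, was 0.94 (adjusted p = 0.0396) in that fit.

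**Figure D3:**
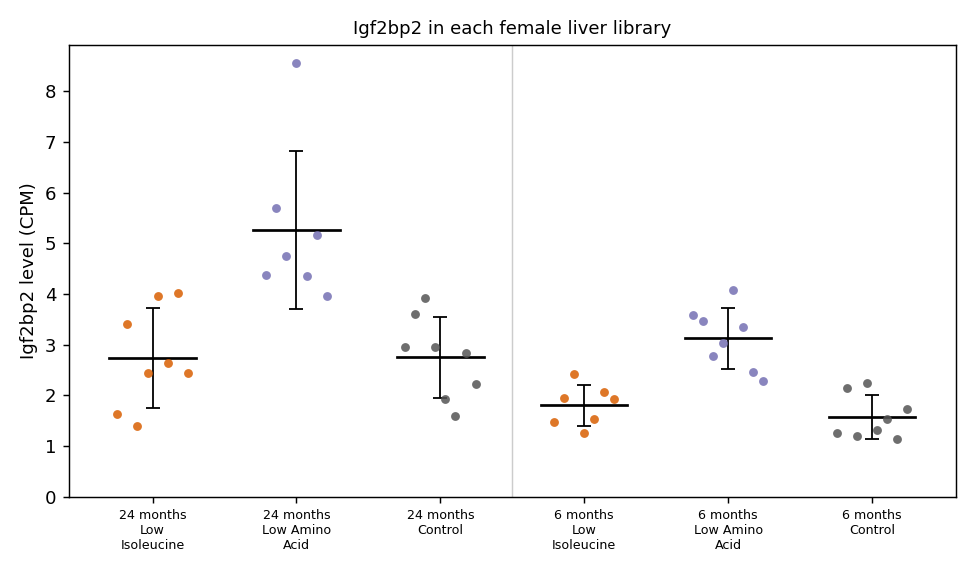
Igf2bp2 level in CPM in each of the 46 female liver libraries, with bars at the group mean and whiskers of 1 SD. All Low Amino Acid livers stand above all Control livers of their age, from 3.96 CPM against at most 3.92 CPM at 24 months and from 2.29 CPM against at most 2.25 CPM at 6 months.

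The male livers were not used by the rule for the list, and they are available as fold changes in the authors' deposited table. There Igf2bp2 was higher on Low Amino Acid than on Control at both ages, by 1.07 at 24 months (adjusted p = 0.0382) and 1.01 at 6 months (adjusted p = 0.00314). In the authors' deposited male data 7 genes, 0.0394% of 17757, were higher on Low Amino Acid at 24 months, so Igf2bp2 was 1 of 7, and 5.34% were higher at 6 months. For Low Isoleucine the authors' deposited male table gives -0.04 (adjusted p = 0.956) and 0.29 (adjusted p = 0.537) at the 2 ages. For 24 over 6 months it gives 0.48 on Control (adjusted p = 0.161) and 0.14 on Low Isoleucine (adjusted p = 0.83).

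The authors' deposited female table, whose fold changes are matched more closely without 4 of the aged libraries, gives 0.71 (adjusted p = 0.019) for Igf2bp2 on Low Amino Acid at 24 months, where it calls 2.87% of 17192 genes higher. At 6 months the authors' deposited female table gives 0.91 (adjusted p = 0.0844), where it calls 0.00582% higher. H19 passed in no comparison of the authors' deposited male table, with 1.19 for age on Control (adjusted p = 0.288), 1.37 for Low Amino Acid at 24 months (adjusted p = 0.305) and -1.24 for Low Isoleucine at 24 months (adjusted p = 0.515). In the authors' deposited female table H19 rose with age on Control by 2.90 (adjusted p = 0.0162), and fell on Low Isoleucine at 24 months by 2.95 (adjusted p = 0.0488). For age on Low Isoleucine, where edgeR called H19 narrowly, the authors' deposited female table gives 1.93 and no call (adjusted p = 0.604). The authors' deposited female table has 12.4% of all genes higher with age and 5.21% lower on Low Isoleucine. Afp, Igf2, Gpc3 and Igf2bp3 passed in none of the 7 comparisons of either of the authors' deposited tables.

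The share of all genes called by the authors' deposited female table is 5.53% and 0.0116% for Low Amino Acid at 24 and 6 months and 9.24% and 0.0931% for Low Isoleucine. For age it is 23.5% on Control, 0.739% on Low Isoleucine and 10.3% for old Low Isoleucine over young Control. In the authors' deposited male table the shares are 0.0563% and 16.3% for Low Amino Acid and 0.0676% and 21.1% for Low Isoleucine. For age they are 20% on Control, 7.08% on Low Isoleucine and 20.1% for old Low Isoleucine over young Control. Whether the sexes differ was not tested, because the male counts could not be read.

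**Figure D4:**
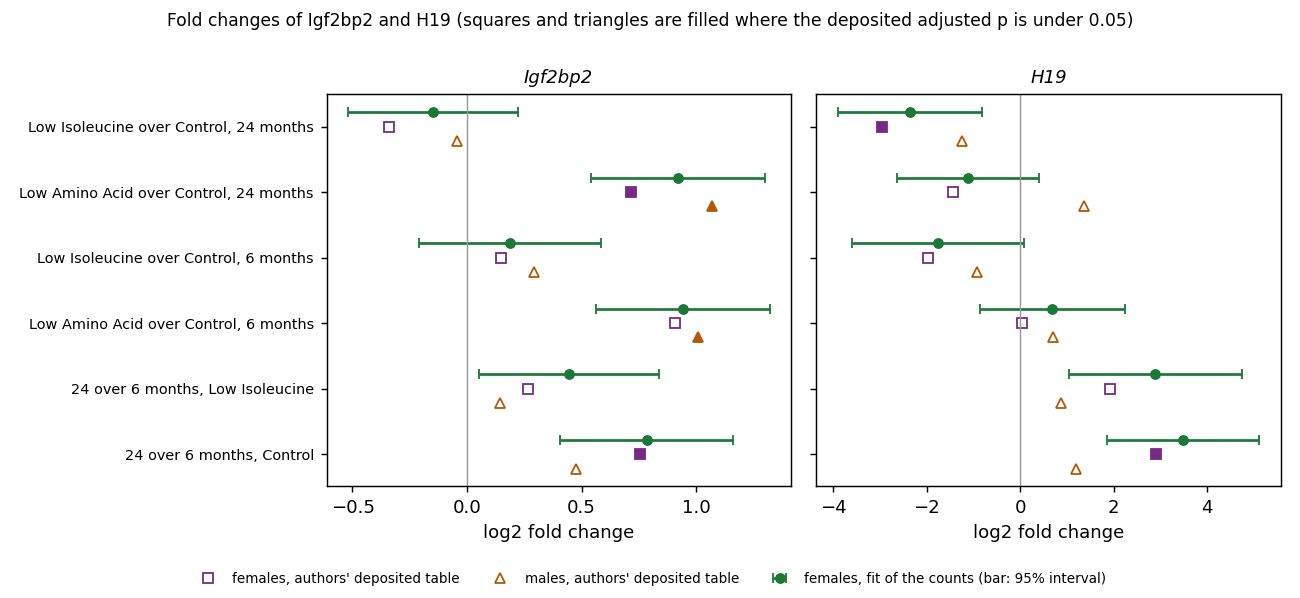
Log2 fold changes of Igf2bp2 and H19 in 6 comparisons, from the fit of the female counts (circles with 95% intervals) and from the authors' deposited tables of females (squares) and males (triangles), filled where the deposited adjusted p is under 0.05. Igf2bp2 lies between 0.71 and 1.07 for Low Amino Acid over Control at both ages and in both sexes.

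Igf2bp3 (chromosome 6, 49085223 to 49214957, minus strand), a paralog of Igf2bp2 that is a fetal form in most tissues, passed in no comparison. For Low Amino Acid its log2 fold change over Control was -0.10 at 24 months (95% interval -0.45 to 0.24) and 0.14 at 6 months (-0.20 to 0.47). It had 1.10 to 2.18 CPM (median 1.21) and 0.958 to 1.93 CPM (median 1.71) on Low Amino Acid at 24 and 6 months, against 0.879 to 2.21 (median 1.58) and 0.965 to 1.98 CPM (median 1.36) on Control. Its group with the highest mean was old Low Isoleucine, at 1.95 ± 0.202 CPM (SD, n = 8), where all 8 livers lay above the median of the young Low Isoleucine group. For age on that diet the fold change was 0.33 (SE 0.177, adjusted p = 0.236). Its 3' end overlaps Malsu1 on the other strand.

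Afp (chromosome 5, 90490737 to 90508907) was measured well above 0 in every adult liver and within a narrow range, from 2.22 to 12.3 CPM over the 46 libraries. Its promoter is shown from RefSeq (GRCm38.p6) because it is a classic fetal liver promoter. Capitals mark TATAAA, which lies 30 bases before the GENCODE start of the gene, and matches of either strand to GTTAA, a short motif of liver promoters. One run, GTTAAC, reads GTTAA on both strands and counts as 2 overlapping matches of the 3.
Afp, chr5:90490464-90490763, plus strand: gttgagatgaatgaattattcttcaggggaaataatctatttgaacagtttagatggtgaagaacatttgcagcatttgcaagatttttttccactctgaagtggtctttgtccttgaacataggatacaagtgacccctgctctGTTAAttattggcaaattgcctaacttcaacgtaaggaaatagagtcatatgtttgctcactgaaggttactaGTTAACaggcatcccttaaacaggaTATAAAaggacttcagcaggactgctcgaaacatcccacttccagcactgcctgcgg

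Of all promoter windows 13.6% hold TATAAA and 24.2% hold GTTAA. The Afp window is 40.0% G or C and has no GC box, so it differs in composition from that of Igf2bp2.

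Afp was higher in old than in young livers on Low Amino Acid. The old livers had a lowest value of 4.80, a median of 6.43 and a highest value of 12.3 CPM (n = 7), against 2.22, 3.57 and 5.93 CPM in the young ones (n = 8). The groups overlapped, with 4 of 7 old livers above every young one and all 7 above the young median. The log2 fold change was 0.81 (SE 0.204, adjusted p = 0.0272). Without replicate 5 of the old group, at 12.3 CPM, it was 0.62 (adjusted p = 0.109), and leaving out any of 6 other libraries of these 2 groups also lost the call, with adjusted p-values of 0.0544 to 0.0677.

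On Low Isoleucine Afp ran from 3.37 over 5.58 to 11.6 CPM in old livers (n = 8) and from 2.54 over 3.78 to 4.40 CPM in young ones (n = 7). The difference of 0.58 (SE 0.208) missed the threshold (adjusted p = 0.0734). On Control the old livers had 4.23 to 6.50 CPM (median 5.11) and the young ones 3.28 to 6.62 CPM (median 4.44), almost the same range, with a fold change of 0.14 (95% interval -0.25 to 0.53, adjusted p = 0.633). By diet Afp passed in no comparison. Mean levels at 24 months descended through Low Amino Acid (6.94 ± 2.54 CPM), Low Isoleucine (6.19 ± 2.71) and Control (5.40 ± 0.915). At 6 months they ascended through Low Isoleucine (3.75 ± 0.678), Low Amino Acid (3.96 ± 1.19) and Control (4.83 ± 1.12). SDs are over 7 or 8 livers, every old group was above every young one in mean, and neighbours in the order lay within 1 SD. Gm43449, an antisense gene, overlaps Afp.

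Gpc3 (chromosome X, 52272426 to 52613950, minus strand) passed in no comparison, and in some groups single livers stood far above the others. On Low Amino Acid 1 old liver, replicate 1, had 8.32 CPM and the other 6 had 0.778 to 2.51 CPM, and 1 young liver, replicate 7, had 5.84 CPM and the other 7 at most 1.94 CPM. Low Isoleucine livers had 0.763 to 2.81 CPM at 24 months (median 1.12) and 0.691 to 2.27 CPM at 6 months (median 1.30). Control livers had 0.344 to 3.74 CPM at 24 months (median 1.09) and 0.483 to 2.66 CPM at 6 months (median 1.11). For Low Amino Acid over Control the log2 fold changes were 0.75 at 24 months (SE 0.444, adjusted p = 0.39) and 0.63 at 6 months (SE 0.441, adjusted p = 0.707). Low Isoleucine over Low Amino Acid at 24 months gave -1.15 (SE 0.455, adjusted p = 0.192).

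**Figure D5:**
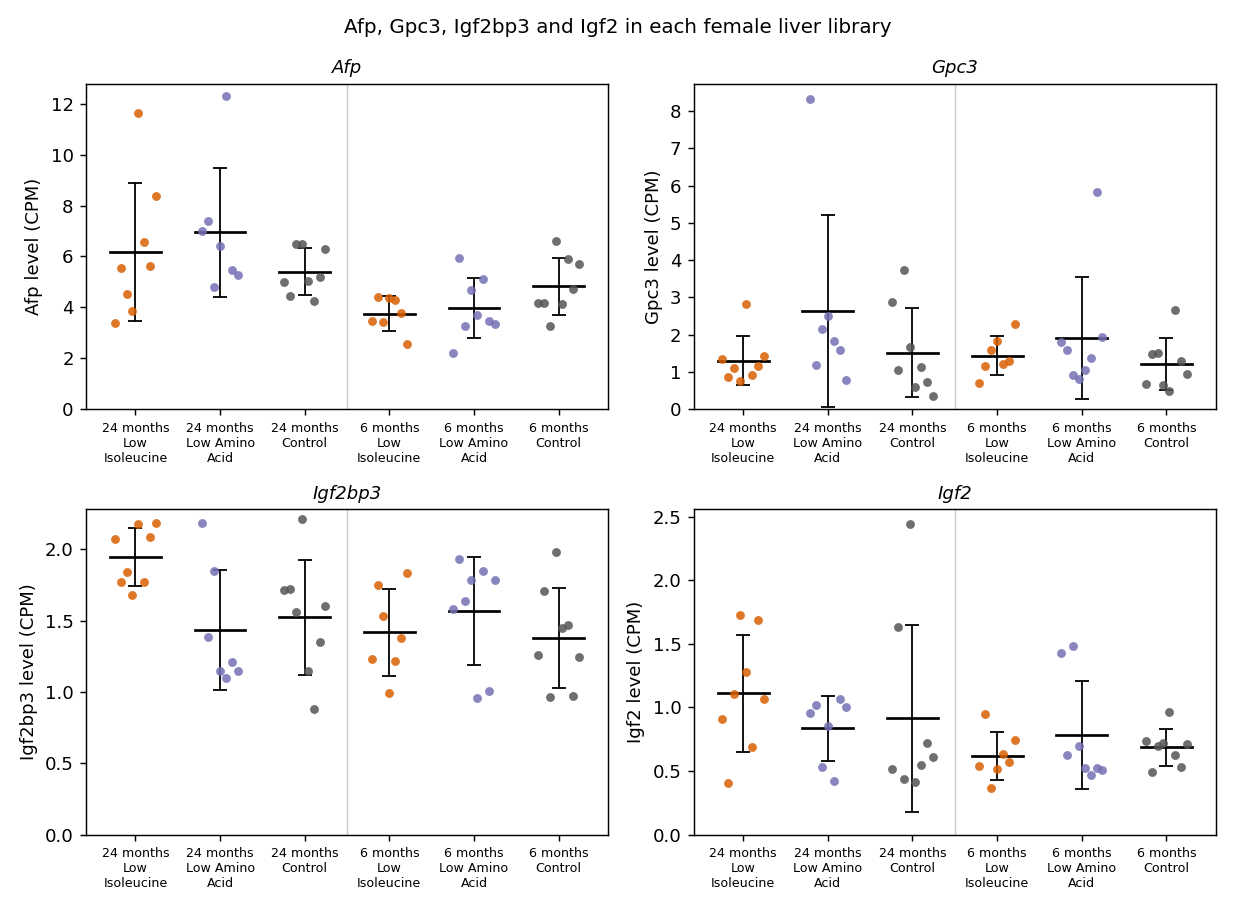
Levels in CPM of Afp, Gpc3, Igf2bp3 and Igf2 in each of the 46 female liver libraries, with bars at the group mean and whiskers of 1 SD. Afp lies between 2.22 and 12.3 CPM in all livers, and Gpc3 has 1 liver far above the rest in each Low Amino Acid group, at 8.32 and 5.84 CPM.

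The repressors Zbtb20 and Zfhx3 passed in no comparison of the female counts. Zbtb20, a zinc finger repressor of Afp, averaged 424 ± 80.9 CPM in old and 449 ± 35.8 CPM in young Control livers (SD, n = 8 each), and its fold change was between -0.12 and 0.06 in the 9 comparisons, with none called. Zfhx3, another zinc finger repressor of Afp, stood at 63.4 ± 15.4, 59.2 ± 13.8 and 46.7 ± 7.26 CPM on Low Isoleucine, Low Amino Acid and Control at 24 months (SD, n = 8, 7 and 8). Its fold changes over Control were 0.31 (adjusted p = 0.181) and 0.32 (adjusted p = 0.264). Zhx2 is not on a readable line. In the authors' deposited tables its fold change with age on Control was -0.30 in females (adjusted p = 0.152) and -0.23 in males (adjusted p = 0.508), and it passed in no comparison. In the authors' deposited male table Zfhx3 was lower at 24 than at 6 months on Control, by -0.76 (adjusted p = 0.000631), where 11.7% of genes were lower, and lower on Low Amino Acid at 6 months, by -0.45 (adjusted p = 0.0409), where 11% were. For old Low Isoleucine over young Control the authors' deposited male table gives -0.61 for Zfhx3 (adjusted p = 0.00321), where 11.2% of genes were lower.

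Of 16 tested regulators of Afp and H19 in liver, 2 rose and 2 fell with age on Control, where 28% of genes were called in either direction. Foxa1, a pioneer factor of liver, fell by 0.72 in log2 terms (adjusted p = 0.000259) and Nr5a2, an orphan nuclear receptor that binds the Afp promoter, by 0.32 (adjusted p = 0.00636). Foxa3, a relative of Foxa1, rose by 0.40 (adjusted p = 0.023) and Ctcf, the insulator protein of the H19 and Igf2 locus, by 0.18 (adjusted p = 0.0231). With diet at 24 months Nr5a2 rose on Low Amino Acid by 0.40 (adjusted p = 0.0275), as 1 of the 16, where 0.452% of all genes rose. The median over these regulators was -0.02 for age on Control, beside 0.03 over all genes tested. A list of genes tied to Zhx2 in mouse liver had 3 tested genes outside the set. With age on Control 1 of the 3 rose, 1 fell and 1 did neither, where 16.7% of all genes rose and 11.4% fell. Their median log2 fold change was -1.015, beside 0.03 over all genes tested. Lpl, lipoprotein lipase, rose with age on Control by 1.24 (adjusted p = 0.036), and Elovl3, a fatty acid elongase, fell by 1.70 (adjusted p = 0.0405). The direction in which Zhx2 acts on each was not tested.

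Of 15 other tested genes of the imprinted growth network, 4 fell with age on Control, Meg3, Slc38a4, Grb10 and Igf2r, where 11.4% of all genes fell. Meg3, the maternally expressed non-coding RNA of the Dlk1 locus, had 0.504 ± 0.280 CPM in old and 1.87 ± 1.02 CPM in young Control livers (SD, n = 8 each). Its log2 fold change was -1.91 (SE 0.359, adjusted p = 0.000286). Slc38a4, an amino acid transporter, fell by 0.56 (adjusted p = 0.000727), Grb10, an adaptor that restrains insulin and growth factor receptors, by 0.74 (adjusted p = 0.00377), and Igf2r, the receptor that clears Igf2, by 0.30 (adjusted p = 0.0101). For Meg3 with age on Control the authors' deposited tables give -1.94 in females (adjusted p = 6.03e-05), where 11.1% of genes were lower. In males they give -1.03 and no call (adjusted p = 0.129). For Low Amino Acid at 6 months Meg3 had -2.32 in males (adjusted p = 0.0105), where 11% of genes were lower. In females it had -0.97 there and no call (adjusted p = 0.271). At 24 months that diet gave no call for Meg3 in either sex, at 0.49 in females and -0.06 in males.

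In the IGF pathway 1 of 15 tested genes rose and 4 fell with age on Control, where 16.7% of all genes rose and 11.4% fell. Irs2, a docking protein of the insulin receptor, rose by 0.50 (adjusted p = 0.0489). Insr, the insulin receptor, fell by 0.26 (adjusted p = 0.00628) and Igfbp4, an IGF-binding protein, by 0.32 (adjusted p = 0.0246), beside Grb10 and Igf2r above. On Low Isoleucine at 24 months Irs1, another docking protein, rose by 0.72 over Control (adjusted p = 0.0255), where 2.69% of genes rose. Of the let-7 and RNA-binding partners 4 of 8 could be tested, with list medians of -0.06 to 0.27 in the 9 comparisons. By edgeR 0 of them passed, and 1 had an unadjusted p under 0.05, in 4 comparisons. It was Dicer1, the enzyme that cuts microRNA precursors, named here after its values were seen. Igf2bp1, the third gene of the Igf2bp family, and Lin28b, which blocks let-7, are not analysed here.

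Other genes of fetal liver or liver tumours rose with age on Control in 10 of 22 tested cases, where 16.7% of all genes rose. Pkm, the pyruvate kinase form of proliferating cells, rose by 1.50 (adjusted p = 0.000212), Cd24a, a surface protein of progenitor cells, by 1.92 (adjusted p = 0.000704), and Cd34, a surface protein of endothelial and progenitor cells, by 1.01 (adjusted p = 0.00327). Scd2, a stearoyl-CoA desaturase of early life, rose by 0.91 (adjusted p = 0.00411). Several of these genes are also expressed by white blood cells, whose markers are given above with H19, or by bile ducts. Bile duct markers summed to 27.9 to 48.5 CPM in old and 30.4 to 46.2 CPM in young Control livers, and 1 of 7 tested rose. The part of those cells was not tested. The median over the 22 was 0.39, beside 0.03 over all genes. For Low Isoleucine over Control at 24 months 1 of the 22 rose and 2 fell, where 2.69% of all genes rose and 3.79% fell. Lgr5, a stem cell and pericentral marker, was higher than on Control by 0.67 (adjusted p = 0.0156). Ly6d was lower by -1.44 (adjusted p = 0.0485), and Ctnnb1, beta-catenin, by -0.28 (adjusted p = 0.0137). Ly6d rose with age on Low Amino Acid by 1.71 (adjusted p = 0.0496), as 1 of the 22, where 1.13% of all genes rose. Lgr5 and Pkm rose with age on Low Isoleucine, by 0.63 (adjusted p = 0.0275) and 0.98 (adjusted p = 0.027), as 2 of the 22, where 4.9% of all genes rose.

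Cell cycle genes rose with age beside H19 on Control, in 16 of 24 cases, where 16.7% of all genes rose. Their summed level was 170, 247 and 236 CPM in replicates 1, 4 and 7 of the old Control group. The others of that group had 57.0 to 86.4 CPM, and young Control livers had 42.4 to 94.6 CPM. Replicates 1, 4 and 7 also had the highest macrophage sums of the group, 1885, 2098 and 3149 CPM. The part of white blood cells in these cell cycle levels was not tested. Mki67, a marker of proliferating cells of any type, averaged 28.2 ± 27.8 CPM in old and 5.46 ± 4.69 CPM in young Control livers (SD, n = 8 each), a log2 fold change of 2.28 (adjusted p = 0.00529). On Low Isoleucine Mki67 rose with age by 2.18 (adjusted p = 0.0315) and on Low Amino Acid it had 1.46 (adjusted p = 0.26). For age on Control the authors' deposited female table gives 2.025 for Mki67 (adjusted p = 0.00232), where 12.4% of genes were higher. On Low Isoleucine the same deposited table gives 0.42 and no call (adjusted p = 0.786). In old Low Isoleucine livers the cell cycle sums were 303 and 136 CPM in replicates 2 and 5. The others of that group had 48.4 to 75.4 CPM. The deposited fold changes were matched most closely without replicates 2 and 5. Mcm3, a subunit of the replicative helicase, rose with age on Low Isoleucine by 0.79 (adjusted p = 0.0251). By edgeR, Mki67 and Mcm3 were the 2 of 24 cell cycle genes that rose there, where 4.9% of all genes rose. Acute phase genes rose in 15 of 18 cases for age on Control, against the same 16.7% of all genes. They fell in 14 of 18 for Low Isoleucine over Control at 24 months, the comparison in which H19 had -2.36, and where 3.79% of genes fell. Acute phase genes and H19 did not run together in every old Control liver. Replicate 5 had the highest summed acute phase level of that group, 167500 CPM, with H19 at 1.56 CPM. Replicate 4, with the highest H19 at 106 CPM, had 30240 CPM. The relation over all livers was not tested.

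Genes with the pattern most like a member were ranked by Spearman rho over the 46 libraries after removal of group means, among 12616 other genes. The libraries share depth and tissue make-up, and the values are descriptive. For Igf2bp2 the first 5 were Arnt2 (0.66), Phgdh (0.61), Septin11 (0.60), Arl8a (0.59) and Castor2 (0.58). For H19 they were Rasa4 (0.62), Ly9 (0.61), Gdpd3 (0.60), Eml6 (0.60) and Filip1l (0.59). Gpc3 was most like Lrp2 (0.73), Sema3c (0.68), Gpm6a (0.66), Efemp1 (0.65) and Ptprq (0.62). Afp was most like Fbrsl1 (0.66), Spatc1l (0.64), Upf1 (0.64), Gapdhs (0.64) and Ap2a1 (0.64). Arnt2, Ptprq and Gapdhs had mean levels of only 0.194, 0.267 and 0.431 CPM, so counting error is large for them. No member was among the 5 genes nearest to these 4, and the rho between H19 and Afp was -0.27.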

How the data were processed

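RNA of fasted HET3 mouse livers was sequenced from stranded libraries with selection of polyadenylated RNA, per the labels' protocols. The submitters' processing notes name edgeR, limma, R 3.4.3 and GRCm38.p5, and the sources used here do not name the aligner. The authors deposited estimated counts per gene, not normalized. They also deposited, for each sex, log2 fold changes with p-values and a score (an F statistic).

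Of 51912 lines in the count table, 17275 are filled under every column. There, fold changes from the female columns followed the deposited female ones (r of 0.933 to 0.995), and those from the male columns did not (r of -0.008 to 0.019). Only the 47 female columns were used, and males come from the authors' deposited table. Of the female libraries, 1 was left out by the rule for the members. Gene positions are from GENCODE M21, which held 17251 of the 17275 identifiers.

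Estimated counts were rounded, filtered with filterByExpr (minimum count 10), scaled by TMM and fitted with edgeR 4.0.16 (R 4.3.3), with a mean per group over 46 libraries. An SE is the size of the log2 fold change divided by the square root of F, and 95% intervals are 1.96 SE either side. CPM are counts per 1e+06 of a library's readable total. Alternatives were DESeq2 1.42.0, RLE scaling, no filter, limma voom 3.58.1 with quality weights, the compared groups only, the left-out library put back, and each library left out. A further 3 were added after seeing the data. Motifs were searched with Python 3.11.15.

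The members and gene lists were chosen with earlier results of these data known. Besides the members, genes named are those past the threshold in a list where 4 or fewer passed, otherwise the 4 with the smallest p, some fixed regulators, and the 5 genes most like a member. Skeletal muscle markers summed to at most 2.29 CPM in any library. A result of 1 gene that the naming rule covers is not reported here.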

Additional observations from a re-analysis of the deposited data

Results flagged for a closer look

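Among the tested members, 36 combinations of a gene and a group were checked for a library far from the others of its group, by the gap to the nearest one as a share of the range (Dixon's 95% critical value). For normally distributed values chance flags about 1 in 20 groups. Here 8 were found, each the highest library of its group. CPM values need not be normally distributed, so the 8 cannot be set against that rate. H19 was 106 CPM in 24-month Control replicate 4, where the next liver had 30.7 CPM. It was 27.9 CPM in 24-month Low Isoleucine replicate 5, where the next had 6.04 CPM. The same library was highest of its group for Gpc3, at 2.81 CPM against 1.43 CPM for the next.

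Gpc3 stood apart in 3 further livers: 8.32 CPM in 24-month Low Amino Acid replicate 1 (next 2.51), 5.84 CPM in 6-month Low Amino Acid replicate 7 (next 1.94) and 2.66 CPM in 6-month Control replicate 6 (next 1.50). Afp was 12.3 CPM in 24-month Low Amino Acid replicate 5 (next 7.38). Igf2bp2 was 8.55 CPM in replicate 4 of the same group (next 5.71), a library with 329 CPM of neutrophil markers. Outside the comparisons, the library left out carried Kdm5d at 50.76 CPM, and its Afp level, 0.870 CPM, was below the 2.22 to 12.3 CPM of the libraries used.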

How the results depend on the processing

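No called value of a member reversed in sign under 9 other settings or with any of 46 libraries left out. Of 590 member values under other settings, 561 kept their side of the threshold, 15 lost it and 14 gained it, and of 3036 with a library left out 2982, 44 and 10 did. The number of members called stayed at 1 for Low Isoleucine over Low Amino Acid at 24 months, 2 for age on Control, and 0 for Low Isoleucine over Control at 6 months and both differences between ages, throughout.

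The other counts moved. Low Amino Acid over Control gave 1 in place of 0 at 6 months (Igf2bp2) with DESeq2, the compared groups only, voom, without the 4 aged libraries the deposited female table does not match, or without the 5 high in neutrophil markers. Leaving out single libraries gave 0 to 1. At 24 months it gave 0 in place of 1 with the compared groups only (Igf2bp2 at 0.92, adjusted p = 0.233), voom (0.72, adjusted p = 0.0544) or without the 5. Low Isoleucine over Control at 24 months gave 1 in place of 0 (H19) with DESeq2, voom or without the 4, and 0 to 1 with single libraries left out. Low Isoleucine over Low Amino Acid at 6 months gave 1 in place of 0 (Igf2bp2) with the compared groups only or voom. Age on Low Amino Acid gave 1 in place of 2 with the left-out library put back, 0 without the 4 or the 5, where Afp kept a fold change of 0.81 in all 3 (adjusted p = 0.0704, 0.1 and 0.0936), and 0 to 2 with single libraries left out. Age on Low Isoleucine gave 0 in place of 1 with no filter, the compared groups only, voom, without the 4 or the 5. It gave 2 with the library put back, where Afp was 0.72 (adjusted p = 0.0417), and 0 to 2 with single libraries left out. Voom with shared title numbers as a block (estimated correlation 0.0346) gave the same counts of members as voom without it: 1, 0 and 1 for Low Amino Acid over Control at 6 and 24 months and Low Isoleucine over Control at 24 months, 1 for Low Isoleucine over Low Amino Acid at 6 months, and 0 for age on Low Isoleucine. Igf2bp2 on Low Amino Acid at 24 months was 0.72 there (adjusted p = 0.0582). The causes were not tested. H19 for age on Low Isoleucine lost its call in 32 of 46 fits with a library left out.

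Counts over all genes moved by more than 1.5 times in most comparisons. For age on Control 3538 genes were called, and 2140 to 3880 under other settings. The same counts were 203 and 26 to 467 for age on Low Amino Acid, and 926 and 119 to 1371 on Low Isoleucine. For Low Isoleucine over Control they were 818 and 40 to 1771 at 24 months and 3 and 2 to 72 at 6 months. For Low Amino Acid over Control they were 94 and 4 to 1473 at 24 months and 0 and 0 to 52 at 6 months. Between the restricted diets, Low Isoleucine over Low Amino Acid, they were 158 and 75 to 832 at 24 months and 2 and 2 to 200 at 6 months. The differences between ages had 0, and up to 521 for Low Amino Acid and 10 for Low Isoleucine.

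No paired analysis was possible because the replicate numbers were given in accession order and carry no pairing. A level of 1 CPM stood for 7.82 to 27.557 counts by library, so counting error is large for Igf2, Igf2bp3 and Gpc3, whose levels lay near it.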
